A study of Mus musculus with 9 samples.

Results

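The miR-17~92 and miR-106b~25 clusters are 2 groups of microRNA hairpins that are each cut from a single primary transcript, and their levels were compared here between control and exposed B16F1 melanoma cells. The members were the 9 hairpins mmu-mir-17, mmu-mir-18a, mmu-mir-19a, mmu-mir-20a, mmu-mir-19b and mmu-mir-92a of miR-17~92, and mmu-mir-106b, mmu-mir-93 and mmu-mir-25 of miR-106b~25. They were chosen by name, out of 362 hairpin names in the count table. No measured value served as a criterion, though earlier results of these data were known. Of the 6414 entries of the table, 250 carried a member's name, 151 from miR-17~92 and 99 from miR-106b~25, and 232 of them had a count. An entry is mostly a sequence tag, that is, a read sequence of 13 to 20 nt listed under a hairpin with its start position. The tags of a hairpin were summed into a 5p arm (start number under 35) and a 3p arm, and the copies of mmu-mir-19b and of mmu-mir-92a were summed under 1 name.

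A microRNA hairpin is cut by Drosha and Dicer into a short duplex, and usually 1 arm of it is loaded into Argonaute and directs the silencing of messenger RNAs that pair with its seed, the bases near its 5′ end. miR-17~92 is known as an oncogenic cluster that is transcribed under MYC and E2F factors and favours cell cycle entry and survival. miR-106b~25 is its paralog, lies inside the gene of the replication factor Mcm7 and shares seeds with it, and both include microRNAs known to target the cell cycle inhibitor Cdkn1a or the pro-apoptotic Bim.

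B16F1 is an established pigmented line from a C57BL/6J mouse melanoma. Small RNA was sequenced from 9 libraries: 3 of control cells without exposure, 3 of cells given L-Tyr at 5 mM, the amino acid from which melanin is made, and 3 of cells given 5-Brd-2′-dU, a thymidine analog, at 2.5 µg/mL, in each case for 72 h. The labels name no clone, transgene or deletion, and they do not say whether replicates came from separate cultures, so p-values measure only the spread between these libraries. In such bulk RNA, fewer cells of a type and less RNA per cell cannot be told apart.

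The sequences are shown because seeds tie members of the clusters together, and because the base past the 3′ end of miR-92a-3p differs between its gene copies. All 9 hairpins matched RefSeq entries (GRCm38.p6), from which the mature sequences are given 5′ to 3′ with the seed, bases 2 to 8, in capitals. The seed AAAGUGC was shared by 4 members from both clusters.
miR-17-5p: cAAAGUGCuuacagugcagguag
miR-20a-5p: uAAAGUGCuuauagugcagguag
miR-93-5p: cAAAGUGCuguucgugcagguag
miR-106b-5p: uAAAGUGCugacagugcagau
The seed AUUGCAC joined the most abundant arm of miR-17~92 with 1 arm of miR-106b~25, and these mature sequences differed at 3 of the 21 bases compared.
miR-92a-3p: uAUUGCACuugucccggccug
miR-25-3p: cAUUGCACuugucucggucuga
Among the members, the seeds of the remaining arms shown were found in miR-17~92 alone, in which miR-19a-3p and miR-19b-3p differed at 1 of 23 bases.
miR-18a-5p: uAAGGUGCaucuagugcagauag
miR-19a-3p: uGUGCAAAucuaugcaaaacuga
miR-19b-3p: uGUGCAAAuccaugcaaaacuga
The opposite arm of mmu-mir-106b is shown because it was the second most abundant member arm, and its seed was shared with no other arm of the members or of the relatives examined.
miR-106b-3p: cCGCACUGuggguacuugcugc

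In mm9, the build used for the deposited counts, the 6 hairpins of miR-17~92 lie on the plus strand of chromosome 14 between 115442893 and 115443728, a span of 836 bp. They fall in an exon of both annotated transcripts of Mir17hg, the host gene of the cluster, which codes for no protein. The hairpins of miR-106b~25 lie on the minus strand of chromosome 5 between 138606549 and 138607046, a span of 498 bp within Mcm7. They are intronic in both protein-coding transcripts of Mcm7 that span them, while 1 retained-intron transcript holds mmu-mir-93 and mmu-mir-25 in an exon. Second copies of mmu-mir-19b and mmu-mir-92a lie on the minus strand of the X chromosome between 50095015 and 50095243, with no annotated host gene.

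The total count per library was between 144452 and 424122, so that 3 counts, the upper limit that a count of 0 allows, were worth 7.07 to 20.8 CPM, the count relative to the total of its library. The members took 2.96% to 6.38% of the total. Replicate 3 of 5-Brd-2′-dU stood apart: its 5 stromal and endothelial marker microRNAs summed to 276691 CPM, of which miR-143 gave 262289, against 1815 to 7425 CPM in the other 8 libraries. Its 3 erythroid markers summed to 7197 CPM against 0 to 392.4 CPM elsewhere, and its 3 leukocyte markers to 1494 CPM against 0 to 68.6 CPM. Of the other 8 libraries, L-Tyr replicate 2 was the highest in each of these sums, at 7425, 392.4 and 68.6 CPM. Single markers carried this: miR-143 gave 6644 CPM of the first sum, miR-451a 247.6 CPM of the second and miR-150 all of the third. For every other marker of these sums, another of the 8 libraries was higher. miR-122, the hepatic marker, was at 76.2 CPM in that library, at 21.3 CPM in replicate 3 of 5-Brd-2′-dU and at 0 in 7 of 9 libraries. L-Tyr replicate 2 was also the only L-Tyr library with a count of miR-18a-5p, miR-20a-5p, miR-25-5p or miR-93-3p. Of the pigment cell markers, miR-211 was high in every library (6714 to 26799 CPM) and miR-204 was at or under 80.4 CPM. The main 5-Brd-2′-dU values are therefore also given without replicate 3, and the part of these markers in the values of either exposure was not tested. Levels are in CPM after TMM scaling over the 9 libraries, which corrects the totals for a few very abundant microRNAs.

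The clusters were uneven in the cells. miR-92a-3p held 97.0% of the counts of miR-17~92 (94.1% to 98.6% per library) and was 6th in mean level among all hairpin arms. Within miR-106b~25, miR-106b-3p held 53.8% of the counts, miR-25-3p 18.4%, miR-106b-5p 18.1% and miR-93-5p 8.93%. By hairpin, mmu-mir-92a gave 65.7% of all member counts, mmu-mir-106b 23.2%, mmu-mir-25 6.06%, mmu-mir-93 3.01%, mmu-mir-17 1.26%, mmu-mir-18a 0.379%, mmu-mir-19b 0.291%, mmu-mir-20a 0.0491% and mmu-mir-19a 0.0184%. The hairpins of miR-17~92 thus ranged from 21 to 74953 counts, with the X chromosome copies of mmu-mir-19b and mmu-mir-92a included. Those of miR-106b~25 were closer together, from 3436 to 26448 counts. The part of the tag length limit, described below, in these counts was not tested. Of the 18 member arms, 14 had at least 30 counts over the 9 libraries. The other 4 were miR-20a-3p with 8 counts, miR-19a-5p with 5, miR-19a-3p with 16, each of these in a single library, and miR-19b-5p with none.

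miR-92a-3p, which is known to restrain Bim and vessel growth, was at 30572, 32675 and 48056 CPM in the control libraries. It was at 36777, 25518 and 40211 CPM with L-Tyr, and at 38561, 19860 and 27508 CPM with 5-Brd-2′-dU. All groups overlapped, with means of 37101 ± 9545 CPM, 34169 ± 7686 CPM and 28643 ± 9402 CPM (SD, n = 3 each). Relative to control, L-Tyr gave a log2 fold change of -0.05 (SE 0.227; 95% interval -0.56 to 0.46). That of 5-Brd-2′-dU was -0.36 (SE 0.285; interval -1.02 to 0.29), and -0.25 without its replicate 3. The adjusted p, by edgeR (quasi-likelihood F test, Benjamini-Hochberg over all arms tested), was 0.970 for the first and 0.597 for the second.

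miR-25-3p, which shares its seed with miR-92a-3p, had the smallest p among the member arms tested with 5-Brd-2′-dU. It was at 3216, 3806 and 3548 CPM in control cells. With L-Tyr it was at 2748, 3010 and 3892 CPM, that is, 2 libraries below and 1 above the control range. With 5-Brd-2′-dU it was at 1655, 1849 and 1902 CPM, so that all 3 libraries lay below all 6 others, under each of the scalings tried. Relative to control, the log2 fold change with 5-Brd-2′-dU was -0.95 (SE 0.256; 95% interval -1.54 to -0.36), an unadjusted p of 0.00582 and an adjusted p of 0.0831 in edgeR (quasi-likelihood, Benjamini-Hochberg), which does not pass 0.05. Over all alternatives the log2 fold change was between -1.41 and -0.83 and the adjusted p between 0.0518 and 0.321, and without replicate 3 of 5-Brd-2′-dU they were -0.93 and 0.132. Relative to L-Tyr, the log2 fold change was -0.83 (SE 0.276), with an unadjusted p of 0.0166 and an adjusted p of 0.211 by the same test. Without replicate 3 of 5-Brd-2′-dU these were -0.80 and an adjusted p of 0.428. Over all alternatives the log2 fold change was between -0.98 and -0.58 and the adjusted p between 0.135 and 0.955. The exact two-sided permutation test over libraries gave p = 0.1 for both comparisons, the smallest p that 3 against 3 allows. With L-Tyr relative to control, the log2 fold change was -0.09 (SE 0.246).

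**Figure D1:**
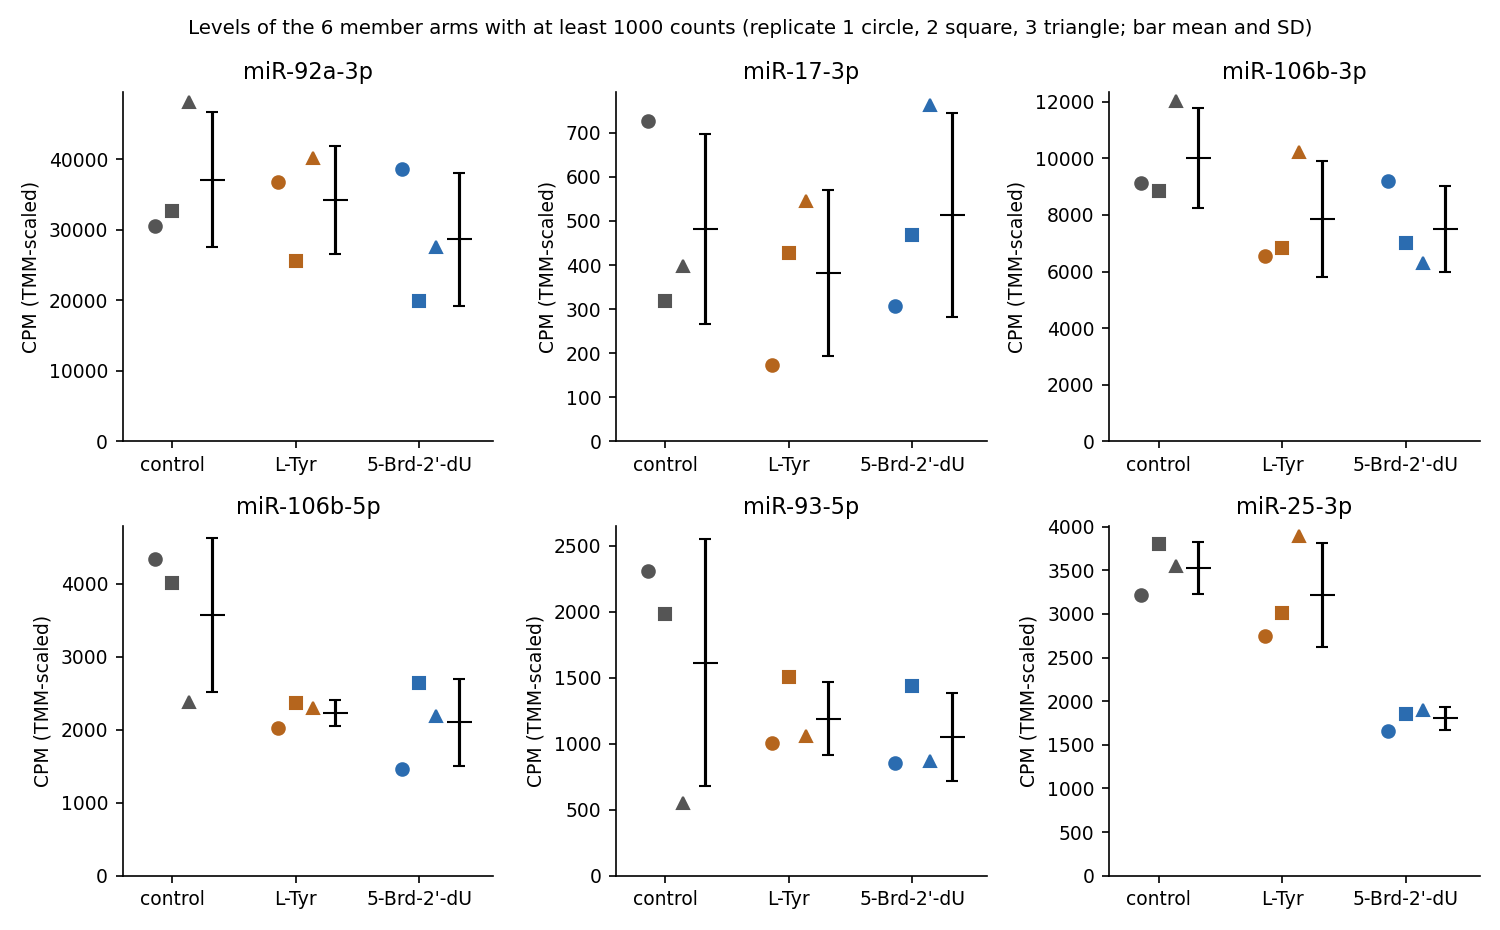
Level (CPM, linear axis from 0) of the 6 member arms with at least 1000 counts in each library of the 3 groups, with points for replicates 1 to 3 and a bar for the mean and SD. In miR-25-3p the 5-Brd-2′-dU points (1655 to 1902 CPM) lie below all others, while the groups of miR-92a-3p, miR-17-3p, miR-106b-3p and miR-93-5p overlap.

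miR-106b-5p, a member of the seed group known to target Cdkn1a, was at 4338, 4011 and 2373 CPM in control cells. It was at 2024, 2366 and 2300 CPM with L-Tyr, and at 1464, 2645 and 2190 CPM with 5-Brd-2′-dU. The L-Tyr libraries lay just below control replicate 3 on the TMM scale and overlapped the controls with total counts, with DESeq2's size factors and without the miR-3963-5p arm. The 5-Brd-2′-dU libraries overlapped the controls. L-Tyr gave a log2 fold change of -0.66 (SE 0.303) with an adjusted p of 0.441, and 5-Brd-2′-dU one of -0.76 (SE 0.369) with an adjusted p of 0.332, both in edgeR (quasi-likelihood, Benjamini-Hochberg). The opposite arm, miR-106b-3p, was at 9110, 8849 and 12030 CPM in control cells, 6534, 6816 and 10226 CPM with L-Tyr and 9211, 7011 and 6292 CPM with 5-Brd-2′-dU. Its groups overlapped, with log2 fold changes of -0.29 (SE 0.229) and -0.40 (SE 0.218). Without replicate 3 of 5-Brd-2′-dU, the log2 fold change of that exposure was -0.72 for miR-106b-5p and -0.21 for miR-106b-3p.

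miR-93-5p, of the same seed as miR-106b-5p, was at 2307, 1983 and 549 CPM in control cells, 1005, 1509 and 1058 CPM with L-Tyr and 850, 1435 and 869 CPM with 5-Brd-2′-dU. Control replicate 3 was the lowest of all 9 libraries, and the groups overlapped. The log2 fold changes were -0.43 (SE 0.527) and -0.63 (SE 0.561), the second -0.43 without replicate 3 of 5-Brd-2′-dU. Across the 9 libraries, the log2 levels of miR-93-5p and miR-106b-5p correlated with r = 0.75, and those of the 2 arms of mmu-mir-106b with r = 0.13. These are descriptions over libraries that share conditions and depth.

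Among the low members of miR-17~92 that passed the count filter, miR-18a-5p lay apart between exposed and control cells. It was at 400, 128 and 439 CPM in control cells, 0, 99.1 and 0 CPM with L-Tyr and 57.9, 107 and 74.5 CPM with 5-Brd-2′-dU. Both exposed groups lay below the controls, on counts of at most 96 per library. The log2 fold change was -1.96 (SE 0.797) for 5-Brd-2′-dU, with an unadjusted p of 0.0396 and an adjusted p of 0.225 in edgeR (quasi-likelihood, Benjamini-Hochberg). That of L-Tyr was -3.20 (SE 1.64), with an adjusted p of 0.441. Without L-Tyr replicate 2, the only L-Tyr library with a count, the adjusted p fell to 0.0459. For 5-Brd-2′-dU the log2 fold change was -1.30 without the tags of predicted hairpins, -0.67 for the most abundant tag alone and -1.84 without replicate 3.

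The other tested arms of miR-17~92 spread widely between replicates. miR-17-5p, the name-giving member, was at 64.0 to 351 CPM in control cells, 0 to 315 CPM with L-Tyr and 81.0 to 168 CPM with 5-Brd-2′-dU. Its opposite arm miR-17-3p was more abundant, at 320 to 726, 174 to 545 and 307 to 763 CPM. miR-19b-3p was at 27.4 to 326, 0 to 188 and 92.3 to 145 CPM. miR-18a-3p was at 13.7 to 49.4, 0 to 31.4 and 7.10 to 191 CPM. miR-20a-5p had 10, 20 and 6 counts in control cells, 0, 10 and 0 with L-Tyr and 0, 2 and 0 with 5-Brd-2′-dU. The 5-Brd-2′-dU libraries lay below the controls (exact two-sided permutation p = 0.1, the smallest possible), but the arm did not pass the count filter in any comparison. miR-92a-5p had 44 counts in all and was at 0 in 5 libraries.

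The minor arms of miR-106b~25 were also low. miR-25-5p was at 119, 63.9 and 86.9 CPM in control cells, 0, 15.2 and 0 CPM with L-Tyr and 75.2, 30.5 and 142 CPM with 5-Brd-2′-dU. The L-Tyr libraries, with 4 counts in all, lay below both other groups. The log2 fold change for L-Tyr relative to control was -3.87 (SE 1.88, adjusted p = 0.441) in edgeR (quasi-likelihood, Benjamini-Hochberg). miR-93-3p was at 4.94 to 110 CPM in control cells, 0 to 64.8 CPM with L-Tyr and 0 to 114 CPM with 5-Brd-2′-dU.

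Counted over the members, no arm passed an adjusted p under 0.05 in any comparison by edgeR's quasi-likelihood fit. For L-Tyr relative to control, 11 of the 18 member arms passed the count filter, 0 were called and 0 had an unadjusted p under 0.05, where 2.24% of the 223 arms tested were called. All 11 had a negative log2 fold change (median -0.52), beside 51.1% of all arms tested (median -0.05). Those of miR-17-5p, miR-17-3p, miR-19b-3p, miR-92a-3p, miR-93-5p, miR-93-3p and miR-25-3p were within 1 SE of 0. Among these, miR-17-3p, miR-19b-3p, miR-92a-3p and miR-25-3p turned positive under at least 1 alternative. Of the 11, 3 lay wholly below the controls (miR-18a-5p, miR-106b-5p, miR-25-5p) and none above, where 11.2% of all arms lay below and 9.87% above on the same TMM scale. Under the other scalings tried, miR-106b-5p overlapped the controls and the other 2 stayed below them. For 5-Brd-2′-dU relative to control, 12 passed the filter, 0 were called and 2 had an unadjusted p under 0.05 (miR-25-3p and miR-18a-5p), where 2.04% of 245 arms were called. Of the 12, 9 were negative (median -0.48), beside 53.9% of all arms (median -0.09), and 2 lay wholly below the controls and none above, where 12.7% of all arms lay below and 13.1% above. The 2 comparisons share the control libraries. Between the exposures, 10 passed the filter, 0 were called and miR-25-3p alone had an unadjusted p under 0.05, where 2.80% of 214 arms were called. In that comparison 5 were negative and 5 positive (median -0.02), and miR-25-3p was the only 1 with groups apart, where 9.81% of all arms lay below and 10.3% above. When the same arm sums were refitted with DESeq2, 0 member arms were called in any comparison.

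**Figure D2:**
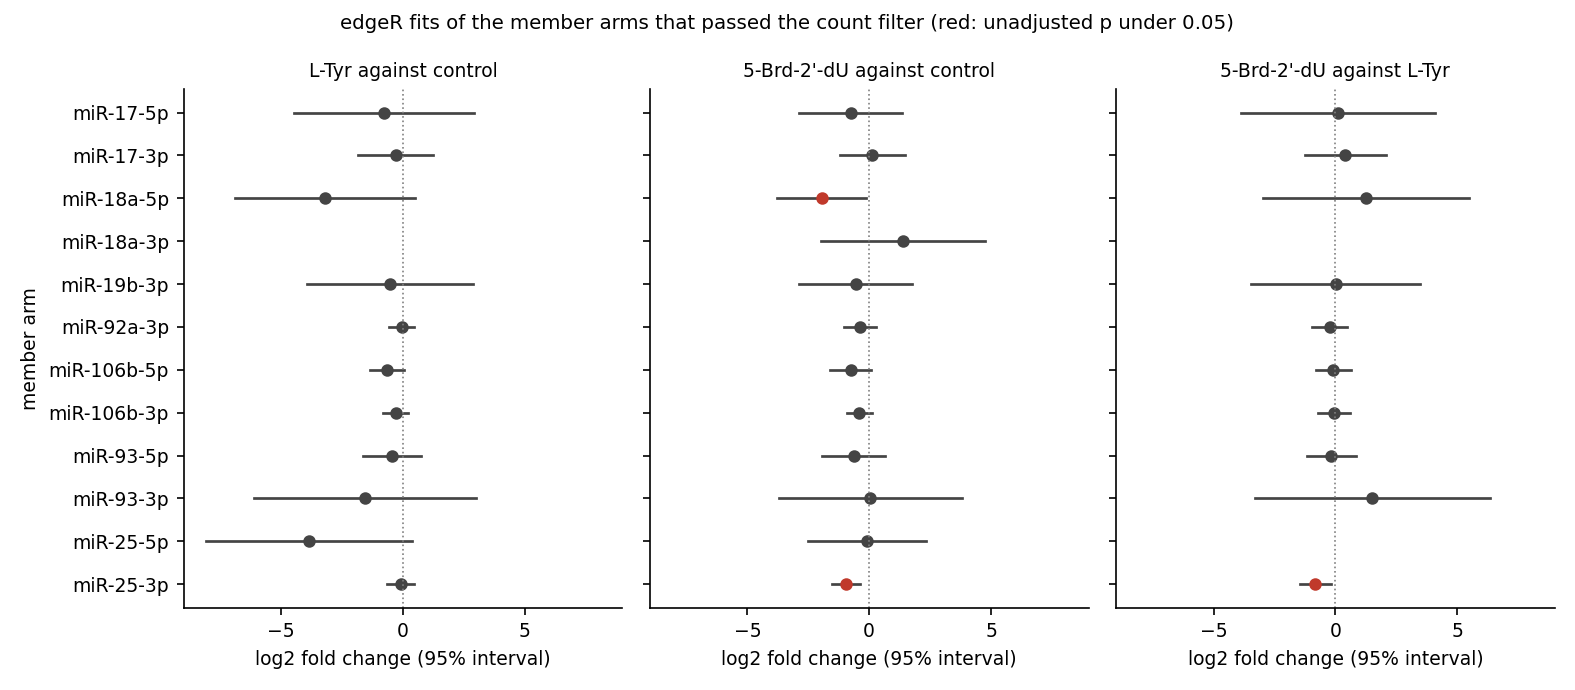
Log2 fold change of each member arm that passed the count filter (points) with its 95% interval (lines), for L-Tyr and 5-Brd-2′-dU relative to control and for the exposures relative to each other, with red points for an unadjusted p under 0.05. The abundant arms have short intervals, and the red points are miR-25-3p (-0.95 and -0.83) and miR-18a-5p (-1.96).

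The clusters were next summed over their arms. The summed level of miR-106b~25 was 19095, 18799 and 18696 CPM in control cells, 12310, 13780 and 17476 CPM with L-Tyr and 13255, 13054 and 11509 CPM with 5-Brd-2′-dU. The means were 18863 ± 207, 14522 ± 2661 and 12606 ± 955 CPM (SD, n = 3 each), and both exposed groups lay below the controls. The small spread of the control sums is given on the TMM scale only, and single arms within them spread more. In control replicate 3, miR-106b-3p was higher than in replicates 1 and 2 (12030 CPM against 9110 and 8849). There miR-93-5p was lower (549 CPM against 2307 and 1983). The separation of the exposed groups from the controls depended on the scaling. With total counts in place of TMM both exposed groups overlapped the controls. With DESeq2's size factors or without miR-3963-5p, the arm of the most abundant tag, the L-Tyr group did. Without replicate 3 the mean of 5-Brd-2′-dU was 13154 CPM. The L-Tyr mean differed from control by -23.0%, and the 5-Brd-2′-dU mean by -33.2%. With total counts these were -14.6% and -32.0%. No test was made of these sums.

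The summed level of miR-17~92 was 32504, 33576 and 49025 CPM in control cells, 37454, 26318 and 40787 CPM with L-Tyr and 39342, 20826 and 28597 CPM with 5-Brd-2′-dU. The groups overlapped, with a 5-Brd-2′-dU mean of 29588 CPM that was 30084 CPM without replicate 3, and miR-92a-3p made up most of the sum. Without mmu-mir-92a, the other 5 hairpins summed to 1902, 857 and 969 CPM in control cells, 677, 800 and 576 CPM with L-Tyr and 781, 929 and 1086 CPM with 5-Brd-2′-dU. On the TMM scale the L-Tyr libraries lay below the controls in that sum, but with total counts they overlapped them, as the 5-Brd-2′-dU libraries did on both scales. For each 100 CPM of miR-17~92 there were 51.0 ± 11.2 CPM of miR-106b~25 in control cells, 42.7 ± 9.75 with L-Tyr and 45.5 ± 15.2 with 5-Brd-2′-dU (SD, n = 3 each), with overlapping groups.

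**Figure D3:**
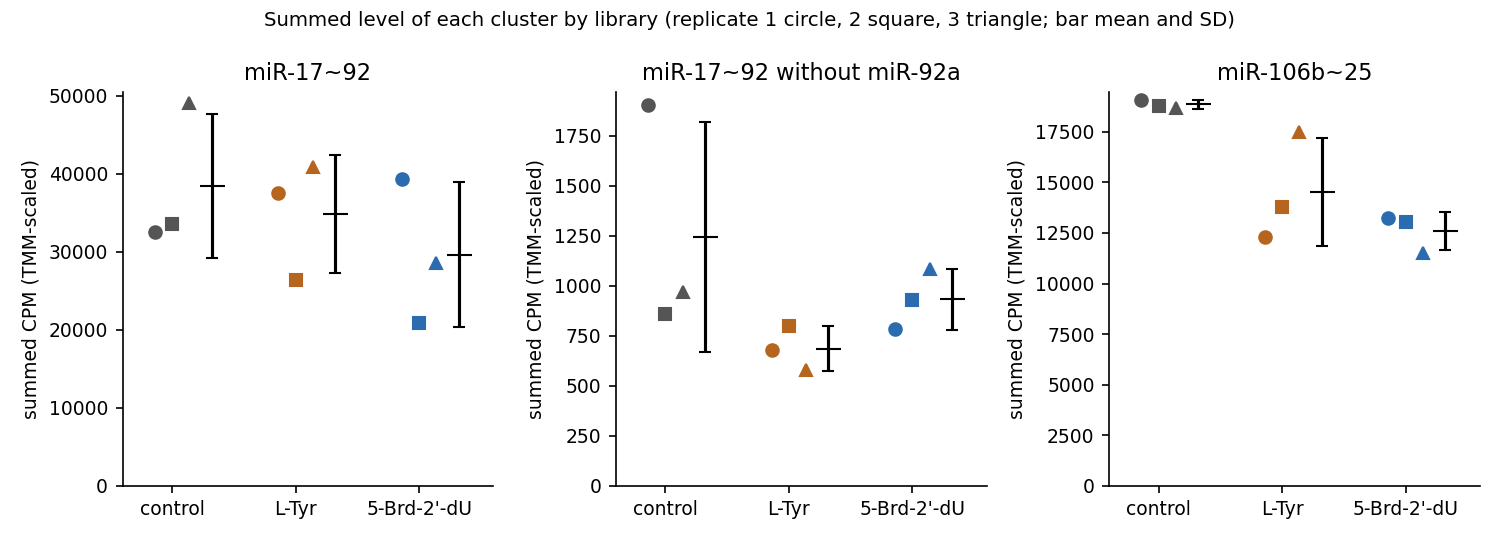
Summed level (CPM, linear axis from 0) of miR-17~92, of miR-17~92 without mmu-mir-92a and of miR-106b~25 in each library, with points for replicates 1 to 3 and a bar for the mean and SD. On this TMM scale the control libraries of miR-106b~25 lie close together (18696 to 19095 CPM) and above all exposed libraries, and those of miR-17~92 overlap the exposed ones.

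Summed by seed, the 4 members with AAAGUGC were at 7045, 6208 and 3013 CPM in control cells, 3344, 3924 and 3358 CPM with L-Tyr and 2395, 4252 and 3151 CPM with 5-Brd-2′-dU. The lowest control library overlapped both exposed groups. The 2 members with AUUGCAC were at 33788 to 51604 CPM in control cells, 28528 to 44103 CPM with L-Tyr and 21709 to 40215 CPM with 5-Brd-2′-dU. Relatives outside both clusters that share a seed with a member had at most 749 counts each over the 9 libraries. Of 7 relatives, miR-106a, miR-20b and miR-367 had no count, miR-18b had 7, miR-363 had 10, miR-32 had 208 and miR-92b had 749. Only miR-92b-3p could be tested. mmu-mir-92b was at 112 to 315 CPM in control cells, 6.70 to 1016 CPM with L-Tyr and 353 to 447 CPM with 5-Brd-2′-dU. With 5-Brd-2′-dU, miR-92b-3p had a log2 fold change of 1.09 (SE 0.623) relative to control and an adjusted p of 0.394 in edgeR (quasi-likelihood, Benjamini-Hochberg).

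Some tags of miR-92a-3p matched only 1 of its gene copies, because the base that follows the mature 3′ end is T in the mmu-mir-92a-1 hairpin of chromosome 14 and A in the mmu-mir-92a-2 hairpin of the X chromosome. The leading tags of each copy are given as DNA in lower case, with that base in capitals.
mmu-mir-92a-1: ttgcacttgtcccggcctgT
mmu-mir-92a-2: ttgcacttgtcccggcctgA
Of the counts, 73.5% were in tags found only in mmu-mir-92a-1, 0.859% in tags found only in mmu-mir-92a-2, 21.1% in tags found in both and 4.53% in tags found exactly in neither. Per library the share for mmu-mir-92a-1 was between 70.2% and 77.6%, and that for mmu-mir-92a-2 between 0.0182% and 1.49%. A U or an A added after cutting would give the same tags as the genomic base, and the tags do not tell these apart. The tags found in both copies were listed with 7314 counts under mmu-mir-92a-1 and 8457 under mmu-mir-92a-2, so that the listed copy of these tags does not show their origin.

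**Figure D4:**
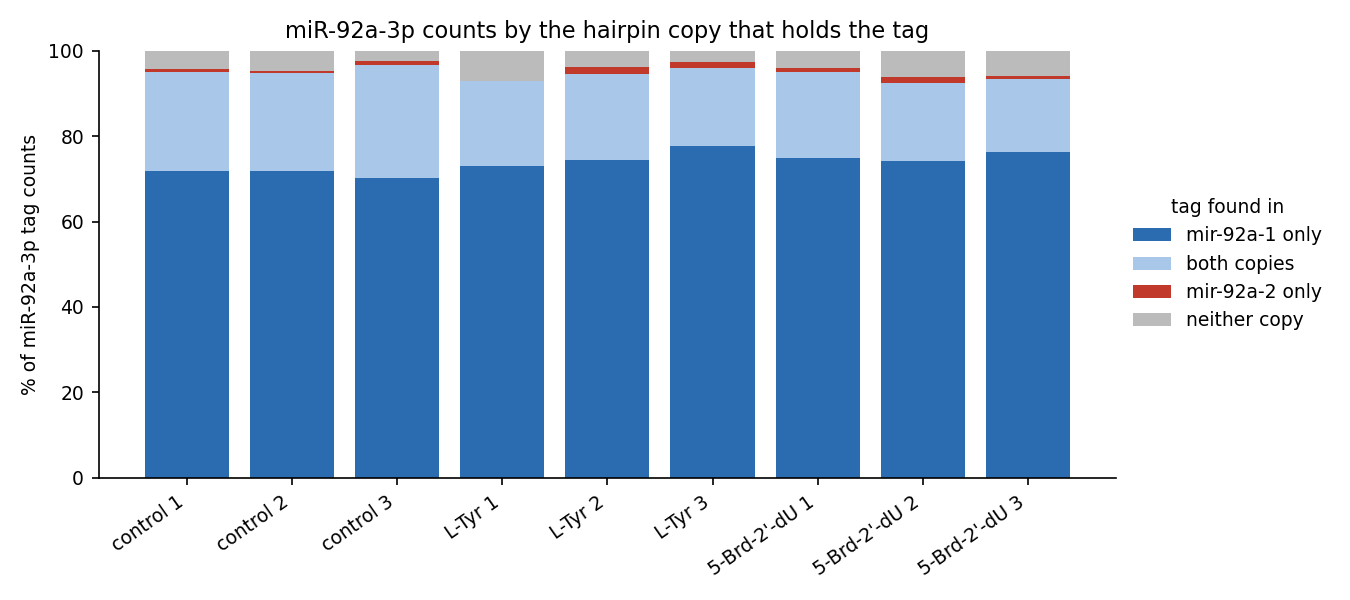
Share (% of miR-92a-3p tag counts, bars stacked to 100%) of tags found only in the mmu-mir-92a-1 hairpin, in both copies, only in mmu-mir-92a-2 or exactly in neither, for each of the 9 libraries. The mmu-mir-92a-1 share is 70.2% to 77.6% in every library.

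Where a tag began differed between members. Of the counts in tags that matched the hairpin exactly, 68.3% of miR-106b-3p and 65.1% of miR-106b-5p began at the mature 5′ end. Only 15.1% of miR-92a-3p, 24.9% of miR-25-3p, 2.52% of miR-17-5p and 1.01% of miR-93-5p began there. No tag was over 20 nt while the mature forms have 21 to 23 nt, so a tag could not hold both ends of a mature sequence. The arms with a late start mostly reached the mature 3′ end, as in 83.2% of miR-92a-3p, 92.5% of miR-17-5p and 88.5% of miR-93-5p. The 8 member arms with a 23-nt mature form had 4395 counts together, the 7 with 22 nt had 28050 and the 2 with 21 nt had 81571, of which miR-92a-3p made up most. How the length limit moved with these levels was not tested. Within an arm, the start of miR-92a-3p was stable, since its leading start held 38.0% to 43.9% of the counts in every library. That of miR-25-3p held 13.9% to 35.02%, and that of miR-106b-5p 44.3% to 92.3%.

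Finally, the balance of the arms was compared in the 5 hairpins with at least 30 counts in every library. mmu-mir-92a was almost wholly 3p, with a 5p share of 0.186% at most. mmu-mir-25 was mostly 3p, with a 5p share of 3.56%, 1.65% and 2.39% in control cells, 0%, 0.504% and 0% with L-Tyr and 4.35%, 1.62% and 6.94% with 5-Brd-2′-dU. The L-Tyr libraries lay below both other groups, and their 95% Wilson intervals, which cover counting error only, reached 1.29% at most. The exact two-sided permutation test gave p = 0.1 for L-Tyr against control and for the exposures against each other, the smallest p possible with 3 against 3, so that none of the 15 comparisons of this kind could pass 0.05. mmu-mir-106b had a 5p share of 26.6% ± 8.82, 22.6% ± 3.81 and 22.3% ± 7.48 (SD, n = 3 each) in the control, L-Tyr and 5-Brd-2′-dU groups. mmu-mir-93 was mostly 5p, with 92.99% ± 8.59, 98.6% ± 2.38 and 94.3% ± 5.78. mmu-mir-17 varied most, from 13.9% to 34.7% in control cells, 0% to 64.4% with L-Tyr and 10.8% to 26.4% with 5-Brd-2′-dU. For these 3 hairpins the groups overlapped.

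**Figure D5:**
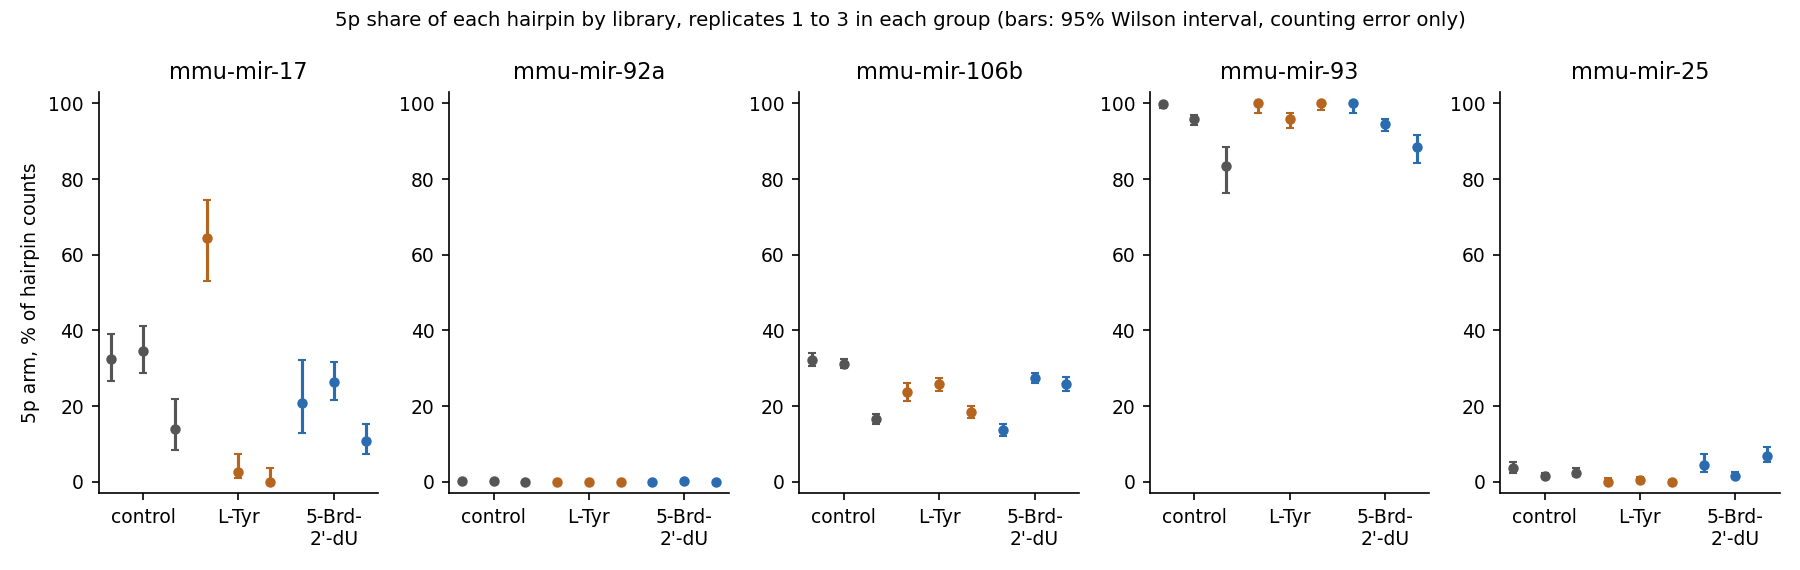
Share of the 5p arm (% of the counts of each hairpin) in each library for the 5 hairpins with at least 30 counts in every library, with replicates 1 to 3 in each group from left to right and bars for the 95% Wilson interval (counting error only). mmu-mir-93 is near 100%, mmu-mir-92a and mmu-mir-25 are near 0%, and mmu-mir-17 ranges from 0% to 64.4% within L-Tyr.

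The arms whose level over the 9 libraries ran most like each cluster were sought among 189 arms with a mean of at least 100 CPM. For miR-17~92 they were let-7c-5p (r = 0.82), let-7a-5p (r = 0.74) and let-7b-5p (r = 0.66), and for miR-106b~25 they were miR-30a-3p (r = 0.77), miR-130b-5p (r = 0.75) and let-7a-5p (r = 0.75). These are the highest of many correlations over libraries that share conditions and scaling, and they are given as a description.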

How the data were processed

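The authors deposited raw counts for 9 small RNA libraries, made with the BaseSpace Small RNA app from reads compared with mm9 and miRBase, and these deposited counts were used for every value. The table of size-factor normalized counts was not used, nor were the authors' comparison tables, which hold their own DESeq2 fold changes and p-values. Groups and replicate numbers come from the sample labels. The members and lists were chosen with earlier results of these data known.

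Tags were summed by hairpin arm, with entries of identical tag and counts taken once, and 15 tags of predicted hairpins named mmu-mir-17 or mmu-mir-18a included. A further 2 predicted entries without a tag have no start number and were left out. That of mmu-mir-17 held 3 to 109 counts per library, or 20.1 to 387 CPM, beside 388 to 1077 CPM counted for the hairpin. That of mmu-mir-18a held 0 to 27 counts. Another name was also listed for 0.102% of member counts. Each comparison was fitted on its 6 libraries, over all arms, in R 4.3.3 with edgeR 4.0.16 (TMM, filterByExpr, quasi-likelihood F test, Benjamini-Hochberg adjustment, calls at an adjusted p under 0.05). On simulated counts with the same spread for every arm, this fit missed many changed arms. Of arms changed by a log2 of 3 it called 41.9% for L-Tyr, 51.5% for 5-Brd-2′-dU and 9.38% between the exposures. For a log2 change of 1 these were 5.71%, 8.82% and 0%. An arm that was not called may therefore still have changed. Abundant members such as miR-92a-3p (SE 0.227 for L-Tyr relative to control) spread less than the common spread of the simulation, so these rates do not describe them. The SE is the size of the log2 fold change divided by the square root of F. Permutation tests used log2(CPM + 1) for levels, in scipy 1.17.1 under Python 3.11.15. Every member arm was to be named, with values for those of at least 30 counts, as well as the same-seed relatives and, per cluster, the 3 most similar arms. Positions were taken by gene name from the GENCODE annotation of mm9, and the NCBIM37 sequence at each matched the RefSeq hairpin exactly.

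Alternatives were DESeq2 1.42.0 and its size factors, total counts, all 9 libraries in the fit, a minimum mean count of 50 or no filter, leaving out the miR-3963-5p arm, a replicate block, every listed entry, tags under 1 name only, tags of at least 17 nt, no mature-name entries, the most abundant tag of each arm in a fit of all entries, and each library left out. Leaving out predicted entries, and comparing group overlap across the scalings, were added after seeing the data. No 2 replicates agreed within sampling noise.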

Additional observations from a re-analysis of the deposited data

How the results depend on the processing

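Of 637 log2 fold changes of member arms under the alternatives, 1 crossed the threshold, miR-18a-5p for L-Tyr relative to control without L-Tyr replicate 2 (adjusted p = 0.0459 by edgeR's quasi-likelihood test). In 45 the sign differed from that reported, always with both values within 1 SE of 0. The number of called arms over the whole table moved more, and the cause was not tested. For L-Tyr relative to control it was 5 as reported, 9 with total counts, 14 without a filter, 17 by DESeq2, and 1 to 12 when each library was left out. For 5-Brd-2′-dU relative to control it was 5 as reported, 3 with total counts, 39 without a filter, 8 with a mean count of at least 50, 18 by DESeq2, 9 in the fit of all 9 libraries, and 1 to 11 when each library was left out. Between the exposures it was 6 as reported, 27 without a filter, 17 by DESeq2, 3 in the fit of all 9 libraries, and 0 to 5 when each library was left out. The most abundant tag was read from an edgeR fit of all entries taken singly, so its called numbers are of entries, not arms. In the comparisons in that order 1, 0 and 2 entries were called, and in the second 156 had an unadjusted p under 0.05. The mean sum of miR-106b~25 in control cells, 18863 CPM, became 18612 CPM with DESeq2's size factors, 18351 CPM with total counts, 20600 CPM without the miR-3963-5p arm, 19506 CPM with tags under 1 name and 19420 CPM without predicted entries, and that of 5-Brd-2′-dU, 12606 CPM, became 14068 CPM without the miR-3963-5p arm. Group means of log2(CPM + 1), on the scaling over 9 libraries used for levels, sums and overlap, were also compared. Their median difference over all tested arms for L-Tyr relative to control was -0.22 with TMM and -0.06 with total counts. Between the exposures it was 0.09 with TMM, 0.19 with DESeq2's size factors and -0.07 with total counts. The median of -0.05 given above for L-Tyr is another measure, the log2 fold change of the edgeR fit of 6 libraries.

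The labels do not say whether same-numbered libraries were paired. The correlation of deviations from the group means between same-numbered libraries was between -0.12 and 0.04. With 3 libraries per group, this cannot settle whether they were paired. With a replicate block, 6, 0 and 3 arms were called in the comparisons in the order above (in the second, 35 had an unadjusted p under 0.05), and miR-25-3p for 5-Brd-2′-dU relative to control kept a log2 fold change of -0.95 (adjusted p = 0.200 by edgeR). Depth limits the members under about 100 counts per library, where a library at 0 allows up to 20.8 CPM.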
